A study of Rattus norvegicus with 210 samples.

Results

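The mediobasal hypothalamus (MBH) and the preoptic area (POA) of vehicle-treated female Sprague-Dawley rats were compared at postnatal day 42 (PND42). The libraries were picked by label and by no measured value: 5 MBH and 5 POA libraries of the vehicle group at this age, 10 of the 210 libraries of the series. The study exposed rats perinatally to diethylstilbestrol (DES), a synthetic estrogen, or to ketoconazole, a fungicide that inhibits steroid synthesis, and sequenced messenger RNA of both tissues at PND22, PND42 and PND90. The dams of the rats compared here were gavaged with corn oil alone, every day, from gestation day 7 up to birth and again in the nursing period up to PND22, so the young were exposed to vehicle only through their mothers. The tissues were cut from the ventral surface of the brain along the lateral sulci of the hypothalamus, from a point ahead of the optic chiasm to the caudal edge of the mammillary bodies. Each library therefore holds all cell types of a block of tissue, and fewer cells of a type cannot be told apart from less RNA per cell.

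The MBH holds the arcuate and ventromedial nuclei, the tuberal area and the median eminence, and with the cuts used here also the mammillary region behind them. Its neurons control feeding, growth, lactation and the release of pituitary hormones. The POA lies in front of the optic chiasm, holds most cell bodies of the neurons that make gonadotropin-releasing hormone (GnRH), and borders the septum and the cholinergic nuclei of the basal forebrain. In the rat, PND42 falls about the end of puberty.

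The promoters of 4 peptide genes higher in the MBH and of the pair of genes at the cholinergic locus higher in the POA are shown first. They belong to the 12 genes named below for the largest difference in each direction. The sequences are from RefSeq on the build GRCr8, while the counts were made on Rnor_6.0. Each runs 5′ to 3′ on the strand of the gene over the 120 bases before its annotated start, and capitals mark the letters TATAAA.
Pomc: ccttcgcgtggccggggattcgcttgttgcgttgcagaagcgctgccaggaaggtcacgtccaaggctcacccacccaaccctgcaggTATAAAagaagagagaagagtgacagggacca
Hcrt: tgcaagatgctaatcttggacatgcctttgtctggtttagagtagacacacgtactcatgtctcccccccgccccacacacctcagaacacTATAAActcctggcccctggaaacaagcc
Npvf: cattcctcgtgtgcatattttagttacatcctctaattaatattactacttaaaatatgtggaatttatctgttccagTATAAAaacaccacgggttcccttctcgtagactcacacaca
Cga: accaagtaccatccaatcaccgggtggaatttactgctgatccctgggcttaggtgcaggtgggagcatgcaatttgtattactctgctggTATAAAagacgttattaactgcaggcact
Chat: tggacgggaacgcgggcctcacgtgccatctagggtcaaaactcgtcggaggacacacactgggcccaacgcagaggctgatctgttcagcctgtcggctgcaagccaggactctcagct
Slc18a3: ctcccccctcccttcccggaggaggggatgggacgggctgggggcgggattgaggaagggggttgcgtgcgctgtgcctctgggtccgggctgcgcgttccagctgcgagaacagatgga

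The window of Pomc is chr6:32659233-32659352 on the plus strand, that of Hcrt chr10:86191525-86191644 on the minus strand, and that of Npvf chr4:81047046-81047165 on the minus strand. Cga is shown at chr5:54283220-54283339 on the plus strand. Chat and Slc18a3 are shown at chr16:7723417-7723536 and chr16:7722815-7722934, both on the minus strand. Chat encodes choline acetyltransferase and Slc18a3 the vesicular acetylcholine transporter, and their annotated starts lie 602 bases apart. TATAAA began 32 bases before the start of Pomc, 29 before those of Hcrt and Cga and 42 before that of Npvf. It was searched in the last 50 bases before each start, on the strand of the gene, and 757 of 33469 RefSeq promoter windows held it (2.26%). Of the 12 genes named below for the largest difference towards the MBH, 10 had a window and 5 held the letters there (Cga, Hcrt, Npvf, Pomc and Tshb). Of the 12 genes towards the POA, 7 had a window and 1 held them (Slc5a7). With both strands and all 250 bases before the start, 12.9% of all windows held the letters. The windows shown for the MBH are all among the 5 that held the letters, and those shown for the POA are among the windows without them. The display is therefore not a fair sample of either set. These matches are a description of letters.

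Between 20543108 and 24235728 reads were counted on genes in the MBH libraries and between 15592294 and 16979710 in the POA libraries, so the 2 tissues did not overlap in depth (exact two-sided permutation test, n = 5 and 5, p = 0.00794, the smallest that 252 splits allow). The MBH libraries detected 18287 ± 175 genes and the POA libraries 17843 ± 92.0 (mean ± SD, n = 5 each; exact two-sided permutation test, p = 0.00794). These counts of genes were not adjusted for depth, so tissue and depth cannot be told apart in them. Mitochondrial transcripts took 7.32% ± 1.43 of the counts in the MBH and 7.80% ± 0.72 in the POA (SD, n = 5 each; exact two-sided permutation test, p = 0.508). The values of single libraries below are CPM, the count of a gene for every 1000000 counts of its library, in the order of replicates 1 to 5. They compare libraries within a gene and not genes with each other, since they were not divided by length.

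Pairs of libraries from the same tissue correlated at 0.975 to 0.989 in the MBH and 0.981 to 0.988 in the POA, and pairs from different tissues at 0.968 to 0.980 (Pearson's r of log2 CPM across genes, which are not independent). The first principal component took 32.6% of the variance and the second 16.2%. Some libraries stood apart in the markers of neighbouring structures. Prkcd, a protein kinase C abundant in the thalamus, stood at 333, 297, 10.4, 22.8 and 111 CPM in the MBH and at 42.6, 31.4, 162, 30.3 and 41.9 CPM in the POA. The MBH replicates 1 and 2 were thus high, as was POA replicate 3, and the tissues overlapped. The 8 thalamic markers summed to 1274, 1202, 509, 464 and 756 CPM in the MBH and to 398, 289, 848, 386 and 470 CPM in the POA, with Calb2 the most abundant. Slc17a7 and Gabrd were high in the same libraries, with 38.3 and 30.8 CPM of Slc17a7 in MBH replicates 1 and 2 against 1.69 and 2.14 CPM in replicates 3 and 4. Without these 3 libraries, called thalamus-rich below, 241 genes were called in place of the 437 given below. Of these, 146 were higher in the MBH and 95 in the POA, with fewer libraries in the test. MBH replicate 5 was intermediate, with 111 CPM of Prkcd and a thalamic sum of 756 CPM, and was kept. This setting therefore does not remove every library with raised thalamic markers.

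**Figure D1:**
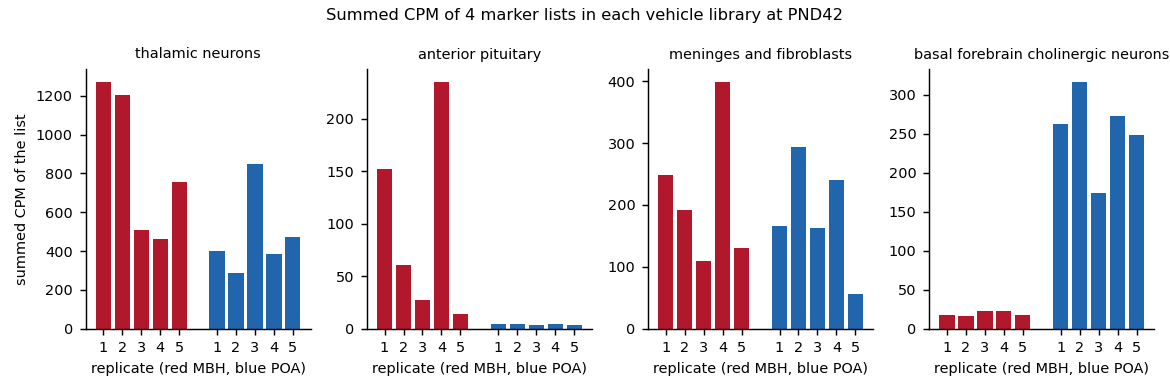
Summed CPM of 4 marker lists (vertical axes) in each of the 10 libraries, replicates 1 to 5 of the MBH in red and of the POA in blue. Thalamic markers were highest in MBH replicates 1 and 2 and POA replicate 3, pituitary markers ranged from 13.8 to 235 CPM in the MBH, meningeal markers overlapped between the tissues, and cholinergic markers were at 174 CPM or more in every POA library and at 23.1 CPM or less in every MBH library.

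Of 14618 genes tested, 437 differed between the tissues at an adjusted p under 0.05 (2.99%; edgeR's quasi-likelihood test, Benjamini-Hochberg adjustment over all genes tested), and 2356 had an unadjusted p under 0.05. Of the 437, 235 were higher in the MBH (1.61% of the genes tested) and 202 in the POA (1.38%). The change was at least 1 on the log2 scale for 109 of the former and 64 of the latter. Leaving out 1 library at a time gave 276 to 451 called genes, with 164 to 244 towards the MBH and 112 to 225 towards the POA. DESeq2 called 829 genes. The median log2 fold change of all genes tested, MBH over POA, was 0.02. The lowest library of one tissue stood above the highest of the other for 369 genes towards the MBH (2.52%) and 300 towards the POA (2.05%), among them 206 and 168 of the called genes. In the account below a gene rose or fell, or was higher or lower, only where it passed this test, and all adjusted p values are from edgeR's quasi-likelihood test. The count of called genes in each list below stands beside these shares over all genes tested: 2.99% called, 1.61% towards the MBH and 1.38% towards the POA.

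Peptide genes of the tuberal hypothalamus were among those with the largest differences towards the MBH. Larger still were those of the hormone subunit genes Tshb and Cga, given further below (log2 fold changes 9.39 and 8.51). Pmch, the precursor of melanin-concentrating hormone, which promotes feeding and is made in the lateral hypothalamus, was at 1066, 1060, 1186, 1057 and 1757 CPM in the MBH and at 1.92, 2.36, 43.2, 8.18 and 6.08 CPM in the POA. Every MBH library was far above every POA library, and POA replicate 3, the thalamus-rich library of that tissue, was the highest of its group. The log2 fold change was 6.66 (SE 0.72, adjusted p = 0.00014), and 8.06 without POA replicate 3. Hcrt, the precursor of the orexins, which sustain wakefulness, was at 25.0, 27.9, 35.8, 23.1 and 33.1 CPM in the MBH and at 0.770, 0.530, 0.615, 0.682 and 0.620 CPM in the POA, a log2 fold change of 5.50 (SE 0.19, adjusted p = 5.02e-09). Its values were narrow within each tissue. The 12 genes named for the largest difference in each direction, Hcrt among them, were picked among genes without overlap between the tissues. Lack of overlap is therefore no separate result for them. Npvf, the precursor of the RF-amide peptides that restrain gonadotropin release, was at 20.8, 16.3, 21.9, 20.8 and 43.0 CPM in the MBH and at no more than 0.192 CPM in the POA, where 2 libraries had no read (log2 fold change 8.08, SE 0.50, adjusted p = 7.58e-07, and 8.75 without the 3 thalamus-rich libraries). The lateral and dorsomedial tuberal list held 7 genes: these 3 rose and the other 4 did not pass the test, with a median log2 fold change of 0.08 over the list. Trh, the thyrotropin-releasing hormone precursor, was at 113 to 139 CPM in the MBH and at 118 to 148 CPM in the POA.

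**Figure D2:**
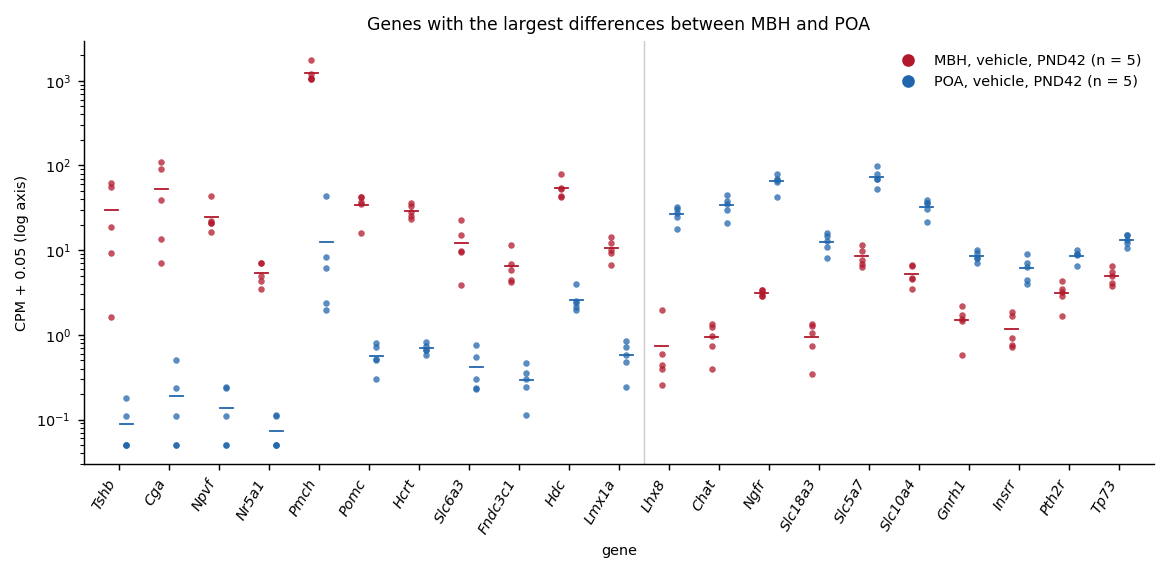
CPM plus 0.05 on a log axis of 21 genes among the 12 with the largest difference in each direction; points are single libraries (5 per tissue, red MBH, blue POA) and bars are means. The genes were chosen among those without overlap between the tissues. Several at the left reach values at or near 0 in the POA, but Pmch and Hdc do not (lowest POA library 1.92 and 1.91 CPM).

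Arcuate neurons govern appetite, growth hormone and prolactin. Of 13 tested markers, 8 were higher in the MBH and none was higher in the POA, with a median log2 fold change of 1.55. Pomc, the precursor of melanocortins and β-endorphin, was at 36.8, 15.8, 42.6, 42.5 and 34.8 CPM in the MBH and at 0.449, 0.471, 0.677, 0.248 and 0.744 CPM in the POA (log2 fold change 6.05, SE 0.33, adjusted p = 2.25e-07). Agrp, which opposes the melanocortins, was at 9.22, 4.24, 9.31, 9.66 and 8.17 CPM in the MBH and at 0.589 to 0.992 CPM in the POA (log2 fold change 3.34, SE 0.25, adjusted p = 4.72e-06). MBH replicate 2 was the lowest of its tissue in both genes and still stood above every POA library. Slc6a3, the dopamine transporter, which tuberoinfundibular neurons use, was at 3.83, 15.2, 9.45, 22.5 and 9.66 CPM in the MBH and at 0.177 to 0.705 CPM in the POA (log2 fold change 5.06, SE 0.51, adjusted p = 7.42e-05). Cartpt rose by 2.83, Ghrh by 2.15, Tbx3 by 2.18, Pdyn by 1.55 and Mc3r by 0.74 on the log2 scale. The adjusted p of Mc3r was 0.0305, and its call was lost without any of 6 single libraries (MBH replicate 3, 4 or 5, or POA replicate 1, 2 or 5). Npy, another defining peptide of the arcuate nucleus, was listed at 0 in all 10 libraries. Whether its reads were left uncounted was not tested, so this 0 is not read as absence. Galp, galanin-like peptide, had 328 reads over the 5 MBH libraries and 3 over the POA libraries, a ratio of 79.4 per read sequenced (95% exact interval 26.9 to 387, counting error only). The log2 fold change of Galp was 6.08, and 7.08 without POA replicate 4.

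All 6 tested markers of the ventromedial nucleus, which regulates energy use and sexual behaviour, were higher in the MBH (median log2 fold change 1.43). Nr5a1, the steroidogenic factor that specifies this nucleus, was at 4.90, 3.46, 6.95, 6.98 and 4.29 CPM in the MBH and had 2 reads in the POA, a ratio of 217 (95% exact interval 59.9 to 1798, counting error only; adjusted p = 6.49e-07). Adcyap1, the precursor of the peptide PACAP, was at 65.5, 73.5, 96.5, 87.4 and 86.2 CPM in the MBH and at 34.9 to 40.4 CPM in the POA (log2 fold change 1.14, SE 0.10, adjusted p = 2.44e-05). The tissues did not overlap in either gene. Sox14 rose by 2.2, Fezf1 by 1.72, Bdnf by 1.05 and Tac1 by 0.87 on the log2 scale.

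The mammillary list, of transcription factors that mark the caudal hypothalamus, had 8 tested genes, of which 7 were higher in the MBH (median log2 fold change 3.34). Lmx1a was at 6.65 to 14.4 CPM in the MBH and at 0.192 to 0.806 CPM in the POA (log2 fold change 4.29, SE 0.29, adjusted p = 1.74e-06). Foxa1 had 125 reads in the MBH and none in the POA, at least 30.3-fold higher against a floor of 3 reads over the group, and Lmx1b, which was too low to test, had 94 reads and none, a ratio of at least 22.8. Foxb1 was at 5.34 to 7.80 CPM in the MBH and at 1.24 to 2.52 CPM in the POA (log2 fold change 1.84, SE 0.20, adjusted p = 0.00014). Barhl1 rose by 4.53 (5.89 without POA replicate 4), Irx3 by 2.39 and Irx5 by 1.38 on the log2 scale. Over the 8 libraries with a label number in both tissues, Irx5 was not called with that number as a block. Its adjusted p was 0.0563, and 0.0219 without the block.

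Genes of histamine and dopamine neurons were higher in the MBH too. Hdc, which makes histamine and in the brain is confined to tuberomammillary neurons, was at 42.8, 52.1, 79.6, 54.0 and 43.9 CPM in the MBH and at 3.91, 2.36, 1.91, 2.11 and 2.48 CPM in the POA (log2 fold change 4.43, SE 0.21, adjusted p = 7.11e-08). Slc18a2, the vesicular monoamine transporter, was at 25.5, 33.1, 46.3, 47.5 and 32.5 CPM in the MBH and at 6.38 to 11.0 CPM in the POA (log2 fold change 2.02, SE 0.17, adjusted p = 1.8e-05). Th, the rate-limiting enzyme of dopamine synthesis, was at 28.8, 35.3, 40.7, 50.8 and 34.5 CPM in the MBH and at 9.48 to 10.5 CPM in the POA (log2 fold change 1.96, SE 0.12, adjusted p = 8.59e-07). None of these 3 genes overlapped between the tissues. Of the 6 tuberomammillary markers 5 were higher in the MBH (median 1.22), and of the 9 tested genes of monoamine synthesis and transport 6 were (median 0.56), none being higher in the POA. Maob rose by 0.56, Ddc by 0.47, Wif1 by 0.99 and Prph by 1.45 on the log2 scale. Wif1 was not called over the 8 libraries with a label number in both tissues. There its adjusted p was 0.0523 with that number as a block and 0.0664 without it. Under every alternative its log2 fold change lay between 0.84 and 1.10. The call of Ddc was lost without any of 7 single libraries, MBH replicate 3, 4 or 5 or POA replicate 1, 2, 3 or 5.

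Tanycytes line the floor of the third ventricle and control the entry of hormones and nutrients. Dio2, which activates thyroid hormone, was at 8.05, 7.50, 5.21, 5.63 and 7.63 CPM in the MBH and at 1.11 to 3.12 CPM in the POA (log2 fold change 1.62, SE 0.26, adjusted p = 0.00296). Crym rose by 1.61, Frzb by 1.55 and Gpr50 by 0.97, so 4 of the 8 tested tanycyte markers were higher in the MBH (median log2 fold change 0.70) and none was higher in the POA. Tshb, the β subunit of thyrotropin, was at 55.7, 18.6, 9.23, 62.0 and 1.57 CPM in the MBH and had 3 reads in the POA, a ratio of 787 (95% exact interval 269 to 3819, counting error only; adjusted p = 0.00113). The log2 fold change of Tshb was 9.39, and 10.39 without POA replicate 1. Cga, the subunit shared by the glycoprotein hormones, was at 91.5, 38.6, 13.4, 111 and 7.01 CPM in the MBH and at no more than 0.449 CPM in the POA (log2 fold change 8.51, SE 1.05, adjusted p = 0.000388, and 9.58 without POA replicate 1). The tissues did not overlap, but the MBH libraries differed among themselves, with replicates 1 and 4 the highest and replicate 5 the lowest in both genes. Tshb and Cga are made in the anterior pituitary and in the pars tuberalis, which adheres to the median eminence. Prl and Gh1, hormones of the pituitary, stood high in MBH replicate 4, the library with the most Tshb and Cga. Prl was at 35.1 CPM in MBH replicate 4 and at 0.413 CPM or less in the other 9 libraries, Gh1 was at 20.4 CPM in the same library and at 0.454 CPM or less elsewhere, and Pou1f1, which defines the cells that make both, was at 0.059 CPM or less in all. Of the 9 pituitary markers, 3 could be tested, and Lhb, at 3.02 to 6.01 CPM in the MBH and 2.65 to 4.34 CPM in the POA, did not pass the test. The list summed to 152, 60.4, 27.3, 235 and 13.8 CPM in the MBH and to 3.2 to 4.68 CPM in the POA. Tshb and Cga stayed called without each of the 10 libraries in turn. Fndc3c1, a gene with fibronectin type III domains, was at 4.14 to 11.3 CPM in the MBH and at 0.062 to 0.412 CPM in the POA (log2 fold change 4.69, SE 0.39, adjusted p = 1.51e-05).

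**Figure D3:**
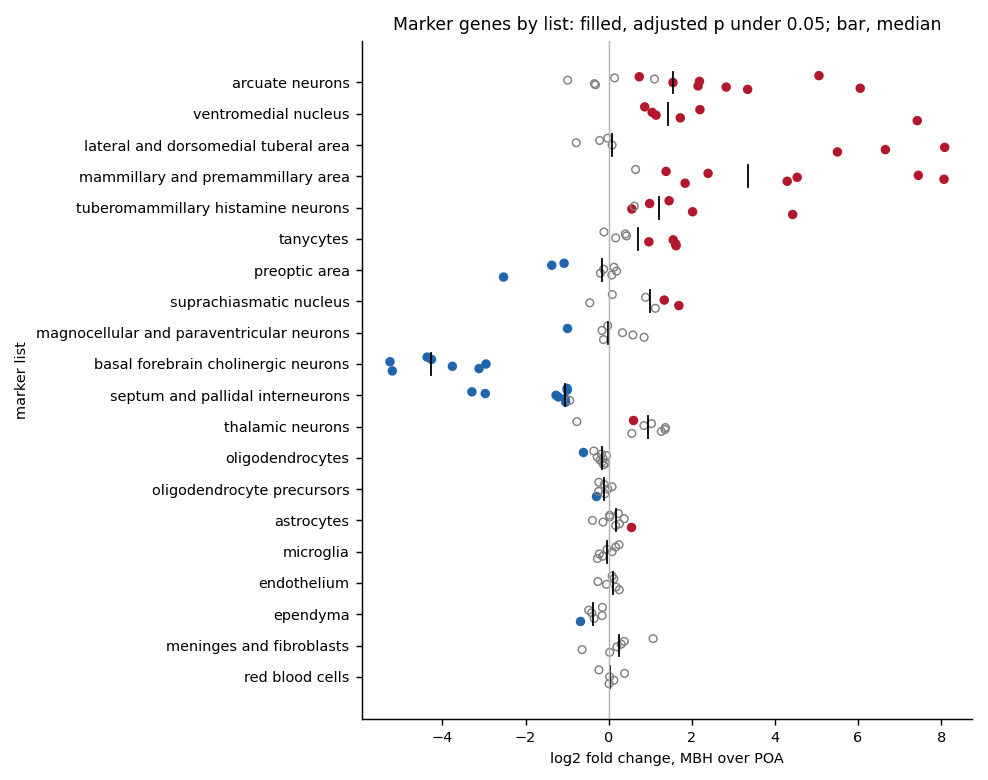
Log2 fold change, MBH over POA, of each tested gene of 20 marker lists; filled points passed an adjusted p under 0.05 (red higher in MBH, blue higher in POA), open points did not, and black bars are list medians. Most arcuate, ventromedial, mammillary and tuberomammillary genes lie to the right, but Kiss1 and Tac3 of the arcuate list to the left. Cholinergic and most septal genes lie to the left, and most glial, vascular and blood genes near 0.

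Genes of cholinergic neurons had the largest differences towards the POA. All 7 markers of basal forebrain cholinergic neurons, which project to the cortex and depend on nerve growth factor, were higher in the POA (median log2 fold change -4.26). Chat was at 0.679, 0.341, 1.2, 1.30 and 0.908 CPM in the MBH and at 35.3, 44.6, 20.6, 38.1 and 29.6 CPM in the POA (log2 fold change -5.20, SE 0.28, adjusted p = 2.25e-07). Lhx8, the LIM factor that specifies these neurons, was at 0.388, 0.341, 1.92, 0.546 and 0.206 CPM in the MBH and at 27.4, 30.4, 17.9, 32.2 and 24.4 CPM in the POA (log2 fold change -5.26, SE 0.39, adjusted p = 4.72e-06, and -6.13 without MBH replicate 3). POA replicate 3 was the lowest of its tissue in both, and still far above the highest MBH library. Ngfr, the low-affinity neurotrophin receptor, was at 2.82 to 3.34 CPM in the MBH and at 42.8 to 79.0 CPM in the POA (log2 fold change -4.37, SE 0.16, adjusted p = 7.27e-09). Slc5a7, which takes up choline, was at 6.28 to 11.4 CPM in the MBH and at 52.6 to 97.8 CPM in the POA (log2 fold change -3.12, SE 0.18, adjusted p = 3.87e-07). Slc18a3 had a log2 fold change of -3.76 and Gbx1 one of -4.26. Slc18a3 shares its locus and strand with Chat, so their reads may be shared. Slc10a4, a vesicular protein of cholinergic and monoaminergic neurons, was at 3.47 to 6.64 CPM in the MBH and at 21.2 to 38.9 CPM in the POA, a log2 fold change of -2.65.

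Factors of telencephalic interneurons were higher in the POA as well. Lhx6, which marks interneurons from the medial ganglionic eminence, was at 0.291 to 0.936 CPM in the MBH and at 2.95 to 5.89 CPM in the POA (log2 fold change -2.97, SE 0.30, adjusted p = 8.82e-05). The tissues did not overlap. Of the 9 septal and pallidal markers 8 were higher in the POA (median log2 fold change -1.05): Zic1, Zic4 and Zic5 had log2 fold changes of -1.03, -1.21 and -1.27, and Dlx5 and Dlx6 of -1.0 each. The calls of Zic1 and Zic5 were each lost without any of 6 single libraries, POA replicate 1, 2, 3 or 5 or MBH replicate 5 in both, and MBH replicate 3 for Zic1 or 4 for Zic5. Of 4 tested cortical genes, Tbr1 was higher in the POA (log2 fold change -2.22, adjusted p = 1.38e-05) and Neurod6 in the MBH (3.12, adjusted p = 0.000191), and of 8 striatal genes, 1 was called in each direction, Ppp1r1b towards the MBH (1.09). Their list medians were 0.45 and 0.02, and 2.99% of all genes tested were called. Penk, the enkephalin precursor, was at 172 to 224 CPM in the MBH and at 168 to 205 CPM in the POA. Others among the 12 genes with the largest differences towards the POA were Insrr, an insulin receptor relative (-2.42), Pth2r, the receptor of the peptide TIP39 (-1.48), and Tp73, a member of the p53 family (-1.41).

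Among genes of reproduction, Gnrh1 and both estrogen receptors were higher in the POA. Gnrh1, the GnRH precursor, was at 1.41, 0.535, 2.14, 1.47 and 1.65 CPM in the MBH and at 8.02, 7.95, 7.01, 10.1 and 9.30 CPM in the POA. The lowest POA library was well above the highest MBH library, and the log2 fold change was -2.53 (SE 0.26, adjusted p = 8.13e-05). Esr1, estrogen receptor α, was at 8.15, 11.9, 14.8, 12.4 and 11.2 CPM in the MBH and at 27.7, 32.5, 26.3, 17.2 and 33.4 CPM in the POA (log2 fold change -1.22, SE 0.18, adjusted p = 0.00177). Esr2, estrogen receptor β, was at 0.728 to 1.38 CPM in the MBH and at 2.17 to 3.41 CPM in the POA (log2 fold change -1.53, SE 0.22, adjusted p = 0.00165). Over the 8 libraries whose label number occurs in both tissues, the adjusted p of Esr2 was 0.0566 with that number as a block and 0.016 without it. Neither receptor overlapped between the tissues. Cyp19a1, aromatase, which makes estradiol from testosterone, was at 1.01 to 2.54 CPM in the MBH and at 3.08 to 4.42 CPM in the POA (log2 fold change -1.37, SE 0.24, adjusted p = 0.00662). Its call was lost without the 3 thalamus-rich libraries (log2 fold change -1.33, adjusted p = 0.0741). Of the 7 genes of sex steroid receptors and aromatase, these 3 were higher in the POA and none in the MBH (median -0.20). Pgr, the progesterone receptor, was at 7.30 to 16.5 CPM in the MBH and 9.30 to 15.2 CPM in the POA, with overlap.

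Kiss1, the precursor of kisspeptin, which drives GnRH neurons from both tissues, was at 0.922, 0.828, 1.6, 1.22 and 1.98 CPM in the MBH and at 0.449, 2.24, 1.35, 3.04 and 1.24 CPM in the POA, and the tissues overlapped (log2 fold change -0.32, SE 0.41, adjusted p = 0.75). Kiss1r, its receptor, was at 3.93, 4.48, 6.11, 5.29 and 4.33 CPM in the MBH and at 3.33, 2.47, 2.95, 3.16 and 3.10 CPM in the POA (log2 fold change 0.70, SE 0.15, adjusted p = 0.026). The libraries did not overlap, but the call was lost without any of 6 single libraries (MBH replicate 3 or 4, POA replicate 1, 2, 3 or 5) and without the 3 thalamus-rich ones (adjusted p = 0.0796). The log2 fold change of Kiss1r lay between 0.59 and 0.80 under every alternative. Tac3, the neurokinin B precursor, was at 11.6 to 23.3 CPM in the MBH and 20.5 to 26.3 CPM in the POA, and Tacr3, its receptor, at 11.2 to 19.4 CPM and 9.42 to 14.2 CPM. Pdyn, the dynorphin precursor, was at 96.2, 86.5, 111, 132 and 129 CPM in the MBH and at 49.4, 38.3, 30.8, 31.0 and 42.9 CPM in the POA (log2 fold change 1.55, SE 0.15, adjusted p = 6.21e-05). Of the 16 genes of the GnRH network, Npvf, Pdyn and Kiss1r were higher in the MBH, Gnrh1 was higher in the POA and 12 did not pass the test (median -0.01), where 2.99% of all genes tested were called.

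**Figure D4:**
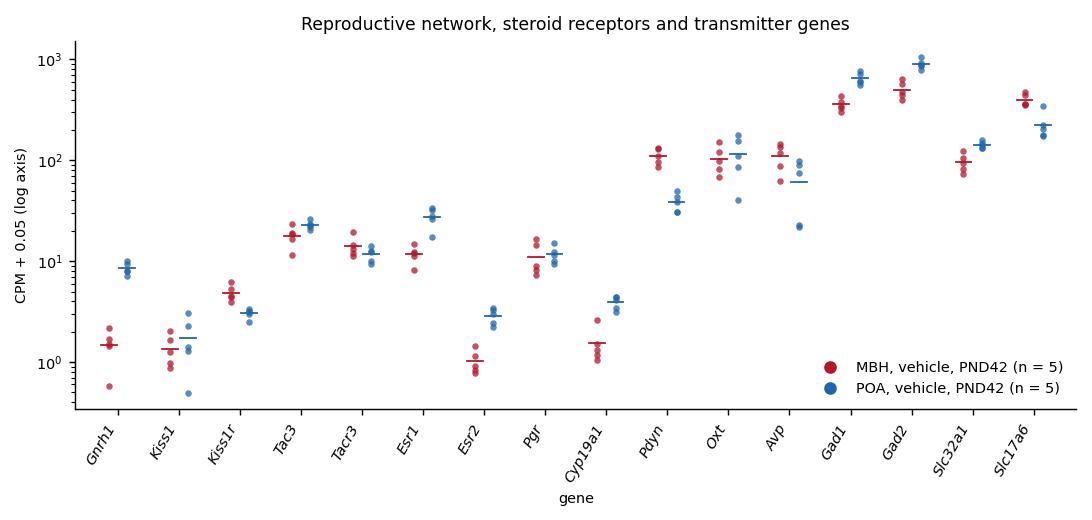
CPM plus 0.05 on a log axis of 16 genes of the reproductive network, steroid receptors and transmitters; points are single libraries (5 per tissue, red MBH, blue POA) and bars are means. Gnrh1, Esr1, Esr2, Cyp19a1 and the GABA genes lie higher in the POA, Pdyn and Slc17a6 higher in the MBH, and Kiss1, Pgr and Oxt overlap.

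Of 8 tested markers of the preoptic area itself, Gnrh1, Cyp19a1 and Nts were higher in the POA and the others did not pass the test (median log2 fold change -0.16). Nts, the neurotensin precursor, was at 22.2, 20.8, 29.8, 22.6 and 29.8 CPM in the MBH and at 53.3, 57.5, 41.5, 59.5 and 55.4 CPM in the POA, without overlap (log2 fold change -1.07, SE 0.14, adjusted p = 0.00049). Gal, the galanin precursor, was at 24.6 to 39.8 CPM in the MBH and 29.7 to 43.3 CPM in the POA, and Moxd1 at 3.31 to 6.28 CPM and 3.2 to 5.33 CPM. Of 6 tested markers of the suprachiasmatic nucleus, the circadian clock above the chiasm, Lhx1 (1.34) and Six6 (1.69) were higher in the MBH (median 1.01). Six6 was not called with the label number as a block (adjusted p = 0.0702, and 0.0266 in the same 8 libraries without it). Vip, a peptide of that nucleus, was at 41.2, 28.9, 16.0, 17.9 and 12.5 CPM in the MBH and at 11.5, 21.1, 9.35, 4.96 and 6.88 CPM in the POA, and the tissues overlapped (log2 fold change 1.12, adjusted p = 0.155). Without POA replicate 2 it was called (log2 fold change 1.52, adjusted p = 0.0443), and over all settings its adjusted p ranged from 0.0443 to 0.797.

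Of 7 magnocellular and paraventricular genes, Crh, the corticotropin-releasing hormone precursor, was higher in the POA and the others did not pass the test (median -0.02). Crh was at 3.66 to 5.16 CPM in the MBH and at 6.61 to 11.3 CPM in the POA (log2 fold change -1.01, SE 0.17, adjusted p = 0.00464). Without the 3 thalamus-rich libraries its adjusted p was 0.0802. Under every alternative its log2 fold change lay between -1.12 and -0.93. Oxt, the oxytocin precursor, was at 122, 67.5, 152, 98.0 and 81.4 CPM in the MBH and at 111, 40.5, 155, 86.7 and 178 CPM in the POA. Avp, the vasopressin precursor, was at 135, 62.8, 145, 87.4 and 117 CPM in the MBH and at 89.7, 22.6, 75.1, 21.9 and 98.1 CPM in the POA. Both genes varied widely within each tissue and overlapped between them (log2 fold changes -0.13 and 0.85, adjusted p = 0.884 and 0.312). Over all 33 tested neuropeptide precursors, 11 were higher in the MBH and 4 in the POA (median 0.25), the latter being Gnrh1, Nts, Crh and Ucn3. Nxph4 rose by 1.41 on the log2 scale in the MBH. The call of Ucn3 (-0.99, adjusted p = 0.039), whose libraries overlapped, was lost without any single library except POA replicate 2.

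Both enzymes that make GABA, the main inhibitory transmitter of the hypothalamus, and its vesicular transporter were higher in the POA, and the glutamate transporter of hypothalamic and thalamic neurons was higher in the MBH. Gad1, which makes GABA, was at 328, 347, 435, 382 and 301 CPM in the MBH and at 710, 767, 560, 601 and 613 CPM in the POA (log2 fold change -0.85, SE 0.10, adjusted p = 0.000193). Gad2, the other synthetic enzyme, was at 396 to 636 CPM in the MBH and at 794 to 1045 CPM in the POA (log2 fold change -0.83, SE 0.10, adjusted p = 0.00049). The tissues did not overlap in either enzyme. Slc32a1, the vesicular GABA transporter, had a log2 fold change of -0.57 (adjusted p = 0.0123) and was not called without the 3 thalamus-rich libraries or with the label number as a block (adjusted p = 0.0684). Its log2 fold change lay between -0.69 and -0.51 under every alternative. Gabra5, a receptor subunit, rose by 0.39 in the MBH, so 4 of 21 genes of the GABA list were higher in the POA and 1 in the MBH (median -0.22). The adjusted p of Gabra5 was 0.0507 with the label number as a block and 0.0178 in the same 8 libraries without it. Slc17a6, the vesicular glutamate transporter, was at 439, 475, 363, 362 and 352 CPM in the MBH and at 203, 177, 345, 174 and 225 CPM in the POA (log2 fold change 0.84, SE 0.17, adjusted p = 0.0164). The thalamus-rich libraries were the highest of their tissue. Without them the log2 fold change was 0.89 (adjusted p = 0.0014), and without POA replicate 1 the adjusted p was 0.0573. Grm3, a metabotropic glutamate receptor, was at 45.6, 50.7, 48.2, 49.9 and 55.0 CPM in the MBH and at 79.9, 74.5, 69.3, 63.7 and 77.6 CPM in the POA (log2 fold change -0.53, SE 0.08, adjusted p = 0.00321), and without the thalamus-rich libraries its adjusted p was 0.0525. Under every alternative the log2 fold change of Grm3 lay between -0.60 and -0.50. Slc17a6 and Grm3 were the 2 called genes among the 23 of the glutamate list (median -0.08), where 2.99% of all genes tested were called.

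Among 31 tested receptors of peptides and hormones, 4 were higher in each tissue (median 0.22), where 1.61% of all genes tested were higher in the MBH and 1.38% in the POA. Calcr, the calcitonin receptor, was at 88.9, 94.9, 155, 134 and 119 CPM in the MBH and at 255, 352, 217, 206 and 221 CPM in the POA (log2 fold change -1.07, SE 0.17, adjusted p = 0.00277). Tacr1, the substance P receptor, was higher in the POA by a log2 fold change of -1.22 (adjusted p = 0.00235), and Glp1r, the receptor of the satiety hormone GLP-1, rose by 1.41 in the MBH (adjusted p = 0.00354). None of these 3 overlapped. The pair of neural melanocortin receptors differed in opposite directions, Mc4r at 2.63 to 3.53 CPM in the MBH and 3.81 to 7.19 CPM in the POA (log2 fold change -0.84, adjusted p = 0.0323), and Mc3r towards the MBH as given above. The call of Mc4r was lost without any of 6 single libraries, MBH replicate 1, 2 or 5 or POA replicate 1, 2 or 4. Trhr (-0.56) and Tshr (0.95) completed the called receptors, and each was lost without some single libraries (MBH replicate 1 or 2 or POA replicate 1, 2, 4 or 5 for Trhr, MBH replicate 3 or POA replicate 2 or 5 for Tshr). Of 28 tested patterning factors 10 were higher in the MBH and 7 in the POA (median 0.32). Meis2 (-0.69), a homeobox factor, was among the latter, and Nkx2-4, a factor of the basal hypothalamus, had 92 reads in the MBH and none in the POA, at least 22.3-fold higher.

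The lists of glia, vessels and blood are given beside a share of 2.99% called over all genes tested. Of 10 oligodendrocyte genes, Opalin, a myelin membrane protein, was higher in the POA, at 177, 208, 176, 180 and 184 CPM in the MBH and 344, 263, 332, 250 and 242 CPM in the POA (log2 fold change -0.61, SE 0.10, adjusted p = 0.00438), and the list median was -0.16. Among 7 precursor genes Pdgfra was called towards the POA (-0.30, adjusted p = 0.0345; median of the list -0.10), with overlap between the tissues and the call lost without any of 6 single libraries, MBH replicate 1, 2 or 3 or POA replicate 1, 2 or 5, or with plain library totals. Gfap, the intermediate filament of astrocytes, was at 691 to 994 CPM in the MBH and 522 to 654 CPM in the POA (log2 fold change 0.53, SE 0.11, adjusted p = 0.0174) and was the 1 called of 9 astrocyte genes (median 0.17). Its call was lost without POA replicate 2 or 5. None of 7 microglial genes (median -0.04), 6 endothelial (0.10), 6 meningeal (0.25) or 5 red blood cell genes (0.02) was called. Of 6 ependymal genes Tmem212 was called towards the POA (-0.70; median -0.38), and of 5 choroid plexus genes Kl was called towards the MBH (0.92; median -0.13), and the calls were lost without any of 5 single libraries for Tmem212 (MBH replicate 1 or 2, POA replicate 1, 3 or 5) and of 7 for Kl (MBH replicate 3, 4 or 5, POA replicate 1, 2, 3 or 4). Calb2 (0.59, adjusted p = 0.00446) was the 1 called of 8 thalamic genes, whose median was 0.94. Of 10 immediate early genes, which follow neuronal activity, Arc was higher in the POA (-0.98, adjusted p = 0.00354) and Fos was not called, at 9.14 to 29.0 CPM in the MBH and 11.7 to 35.9 CPM in the POA (median -0.59). Whether the time or order of dissection differed between tissues is not stated in the sources used here.

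Of the further genes that the study discusses, most did not pass the test between the tissues. Mkrn3, an imprinted gene linked to the onset of puberty, was at 1.07 to 1.76 CPM in the MBH and 1.11 to 2.05 CPM in the POA. Igsf10 was at 12.1 to 17.3 CPM and 12.0 to 15.8 CPM, and the GABA receptor subunit gene Gabre at 22.6 to 38.8 CPM and 30.4 to 52.2 CPM. The chromatin genes Cbx7, Ezh1, Ezh2 and Dnmt3a had log2 fold changes of -0.03, -0.03, 0.12 and -0.11, all with overlap. Pparg, a nuclear receptor of lipid metabolism, was at 0.194 to 0.454 CPM in the MBH and 0.124 to 0.530 CPM in the POA, and Npw, the neuropeptide W precursor, at 0.045 CPM or less and 0.118 CPM or less, both too low to test.

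The same tissues from DES rats at PND42 and from vehicle rats at PND22 and PND90 gave values in other animals. Before they are read, several libraries stood apart from their labels. POA library 4 of the vehicle group at PND22 had 1400 CPM of Pmch, 15.2 CPM of Lmx1a and 0.238 CPM of Lhx8, and POA library 4 of the middle DES dose at PND42 had 869, 7.80 and 0.374 CPM, levels like those of MBH libraries. Results were computed with and without these 2 libraries. Genes that changed with age also went against the labels of whole groups. Gpr17, a receptor of maturing oligodendrocytes, was at 104 ± 8.29, 38.9 ± 6.02 and 123 ± 12.9 CPM in the MBH libraries labelled PND22, PND42 and PND90, and at 128 ± 37.0, 46.4 ± 5.91 and 27.4 ± 1.93 CPM in the POA libraries (mean ± SD, n = 5 each, those that stood apart included). Qdpr, which recycles the cofactor of monoamine synthesis, was at 104 ± 4.95, 180 ± 10.5 and 111 ± 6.04 CPM in the MBH and 97.0 ± 4.57, 192 ± 11.3 and 329 ± 8.97 CPM in the POA. The MBH libraries labelled PND90 thus stood near those labelled PND22 in both genes, whereas the POA libraries changed in 1 direction across the ages.

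The DES libraries of the MBH labelled PND42 stood apart in the same genes. Qdpr was at 366 ± 29.4, 391 ± 65.8 and 377 ± 101 CPM at 3, 6 and 12 µg/kg in the MBH and at 182 ± 20.8, 178 ± 13.5 and 179 ± 4.49 CPM in the POA. Gpr17 was at 22.4 ± 3.09, 22.1 ± 2.82 and 19.7 ± 3.10 CPM in the MBH and at 51.3 ± 2.66, 50.2 ± 8.46 and 59.8 ± 5.17 CPM in the POA (mean ± SD, n = 5 each). The POA values were near those of vehicle rats at PND42 and the MBH values were nearer to those of the POA at PND90. In these libraries tissue therefore cannot be told apart from whatever set these levels. In the 10 vehicle libraries at PND42 the tissues were alike in both genes, with log2 fold changes of -0.24 for Gpr17 and -0.07 for Qdpr (adjusted p = 0.258 and 0.675). Both genes were chosen after their values were seen.

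In DES rats labelled PND42, 2256 of 14538 genes were called between the tissues at 3 µg/kg (15.5%), 463 of 14575 at 6 µg/kg (3.18%; 8.97% without the POA library that stood apart) and 1761 of 14666 at 12 µg/kg (12%). Of the 437 genes called in vehicle rats, 359 of the 432 tested at 3 µg/kg were called in the same direction (83.1%), as were 342 of 432 at 12 µg/kg (79.2%). At 6 µg/kg they numbered 146 of 430 (34.0%) with all libraries and 337 of 436 (77.3%) without the POA library. None was called in the opposite direction in any of the 3 groups. The log2 fold change of Hcrt was 6.23, 5.90 and 5.45 at 3, 6 (without that library) and 12 µg/kg, and that of Chat was -4.42, -5.06 and -5.26. The change of Esr1 was -0.36, -1.38 and -0.66, and passed the test at 6 µg/kg alone (adjusted p = 0.000248). Whether the tissue difference itself changed with DES was not tested.

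Across ages, the difference of differences was tested in 1 fit over the 30 vehicle libraries. Between PND42 and PND22, 1 of 15281 genes was called (0.00654%), and 1700 had an unadjusted p under 0.05. That gene, Tlnrd1, was at 22.5, 21.2, 18, 16.9 and 20.2 CPM in the MBH and at 13.5, 13.6, 16.2, 12.8 and 14.4 CPM in the POA at PND42, and its log2 fold change was 0.51 at PND42 and -0.26 at PND22, a difference of 0.76 (SE 0.13, adjusted p = 0.0473). Without the POA library at PND22 that stood apart, 29 of 15395 genes were called (0.188%), 22 with a tissue difference shifted towards the MBH at PND42 and 7 towards the POA. Among the largest were Oxt (4.17), Vip (3.36), Ucn3 (3.00) and Tbr1 (2.27). Oxt averaged 8.14 CPM in the MBH and 155 CPM in the POA at PND22, where at PND42 the tissues overlapped. Of the 437 genes, 311 were called in the same direction at PND22 in that fit (71.2%), where 13.6% of all genes tested were called between the tissues. With all libraries 247 were (56.5%, against 9.78% of all genes tested), and none was called in the opposite direction in either.

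Between PND42 and PND90, 1693 of 15281 genes were called (11.1%). Of the 437 genes, 281 were called in the same direction at PND90 (64.3%) and 21 in the opposite one, where 29.1% of all genes tested were called between the tissues. The largest differences of the tissue difference were those of Rps13 (-5.70), Alox15 (-5.08), Vip (3.88), Slc4a1 (-3.83) and Eln (-3.18). Rps13, a ribosomal protein gene with many near-identical copies, is uncertain. Alox15, a lipoxygenase, averaged 48.6 CPM in the MBH and 1.51 CPM in the POA at PND90. In the MBH libraries labelled PND22 and PND42 it averaged 56.6 and 5.27 CPM. The part of the MBH libraries labelled PND90 in this count was not tested. Pmch, Hcrt, Hdc, Lhx8 and Chat kept the sign of their tissue difference at each labelled age, with log2 fold changes at PND90 of 5.09, 4.67, 5.21, -5.99 and -4.38. Gnrh1 was lower in the MBH by a log2 fold change of -2.34 at PND22 (without the POA library), -2.53 at PND42 and -4.42 at PND90, and the difference between PND42 and PND90 was 1.89 (adjusted p = 0.0477).

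**Figure D5:**
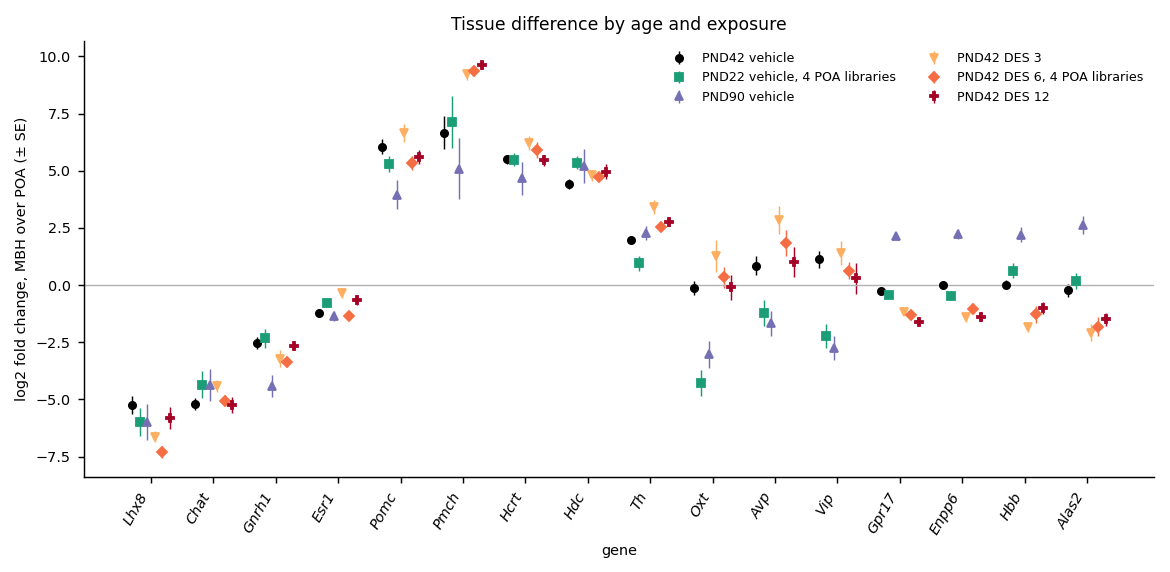
Log2 fold change, MBH over POA, with its SE (vertical axis), of 16 genes in vehicle rats at 3 labelled ages and in DES rats at PND42 (3, 6 and 12 µg/kg), with the POA library that stood apart left out at PND22 and at 6 µg/kg. Regional genes such as Lhx8, Chat, Pmch and Hcrt stay on 1 side of 0 throughout, whereas Gpr17, Enpp6, Hbb and Alas2 lie near 0 in vehicle rats at PND42 and away from 0 in the libraries labelled PND90 and in the DES libraries.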

How the data were processed

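The 10 libraries were stranded polyA libraries sequenced as read pairs. The authors demultiplexed with bcl2fastq 2.20 (per the submitters' processing notes), ran nf-core rnaseq 1.4.2 with STAR 2.6.1d and featureCounts 1.6.4 on Rnor_6.0 with Ensembl release 102, and deposited 1 table of raw read counts per gene and tissue, with 1 column per library and no normalization. Strand use in counting and the treatment of reads with several alignments are not given in the sources used here, so overlapping genes and genes with near-identical copies are uncertain. Both tables hold 32883 genes, of which 396 have no symbol. Groups came from the titles. The comparison and its members, the marker lists and the tests were taken up with earlier results of these data known.

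Counts were fitted with edgeR 4.0.16 (limma 3.58.1, R 4.3.3): TMM factors, filterByExpr with a minimum count of 10, glmQLFit and a two-sided glmQLFTest on MBH against POA, 5 libraries each, without a covariate. P-values were adjusted by Benjamini-Hochberg over all 14618 genes tested and called under 0.05. Each SE was obtained as |log2 fold change| over the root of the F statistic. The fit of ages used 1 mean per tissue and age over 30 vehicle libraries, and DES rats were fitted as vehicle rats, per dose. A single value was tested by an exact permutation over 252 splits. CPM used library totals without TMM. Named genes were the 12 with the largest log2 fold change in each direction among called genes with a mean of at least 5 CPM in the higher tissue, no overlap and a proper symbol, the members of the lists, genes the study discusses, and the 5 largest per age contrast. Some genes that the rule selects are not reported here. Genes taken up after their values were seen are Gpr17, Qdpr, Hbb, Enpp6 and Alas2 across groups, Galp, Nxph4 and Gabrd. A read count of 0 allows up to 3 reads, between 0.124 and 0.192 CPM in a library, and such limits cover counting error only.

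A number in the labels is shared by 4 libraries of each tissue, but no label says that it marks a rat. Same-numbered deviations correlated at -0.18, 0.01, 0.06 and 0.12, and the block was used as an alternative only. Whether the replicates came from separate litters is not stated, so p-values measure the spread between these libraries. Replicates differed beyond sampling noise (chi-square per degree of freedom 6.31 to 67.5), so none was counted once for a pair. On simulated counts of 14618 genes for the comparison of tissues, 90% of 100 genes changed 2-fold and 99% of 100 changed 4-fold were recovered, with 18 false calls. For the comparison of tissues between PND42 and PND22, 76% of 100 genes changed 2-fold and 99% of 100 changed 4-fold were recovered, with 3 false calls. Alternatives were DESeq2 1.42.0, RLE factors, library totals, no filter, thinning to the smallest library, the label number as a block, the 30-library fit and leaving out each library. Leaving out the 3 thalamus-rich libraries, or a POA library that stood apart, was added after seeing the data.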

Additional observations from a re-analysis of the deposited data

Results flagged for a closer look

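A library far from the other 4 of its group was found in 19 of 251 groups of 5 values examined. How many such groups chance alone would give was not tested. In the MBH, replicate 5 stood apart for Npvf (43.0 CPM), Pmch (1757 CPM) and Enpp6 (22.8 CPM), replicate 4 for Prl (35.1 CPM), Gh1 (20.4 CPM), Arc (12.9 CPM) and Alas2 (8.24 CPM), replicate 2 for Opalin (208 CPM), Agrp (4.24 CPM) and Galp (0.974 CPM), and replicate 3 for Lhx8 (1.92 CPM). Of these, Agrp and Galp were lower than in the rest of the group and the others were higher. In the POA, replicate 3 was high for Prkcd (162 CPM), Ptpn3 (143 CPM), Gabrd (26.1 CPM), Pmch (43.2 CPM) and Gh1 (0.308 CPM), replicate 5 for Mbp (11125 CPM) and Prl (0.372 CPM), and replicate 1 for Hdc (3.91 CPM).

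The tissue difference itself differed between ages for named genes, by the test of the difference over 30 vehicle libraries. Between PND42 and PND22, Tlnrd1 differed by 0.76 on the log2 scale. Between PND42 and PND90, where the MBH libraries stood apart from their label in genes that change with age, the difference was shifted towards the MBH at PND42 for Gnrh1 (1.89), Tlnrd1 (0.78), Vip (3.88), Oxt (2.90), Avp (2.52), Pgr (0.77), Kiss1r (1.05), Tac3 (0.81), Zic1 (1.42), Cbx7 (0.64), Ezh1 (0.41) and Qdpr (1.54). It was shifted towards the POA for Rps13 (-5.70), Alox15 (-5.08), Slc4a1 (-3.83), Eln (-3.18), Alas2 (-2.86), Gpr17 (-2.37), Enpp6 (-2.25), Hbb (-2.19), Mkrn3 (-1.33), Ezh2 (-1.05), Gabre (-0.98), Dnmt3a (-0.93), Opalin (-0.90), Igsf10 (-0.73) and Pdgfra (-0.63). Tissue and the cause of the levels in the MBH libraries labelled PND90 cannot be told apart in these values.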

How the results depend on the processing

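The count of 437 genes rests on 5 libraries per tissue that differ in depth and in thalamic markers. RLE factors gave 444 genes, library totals 400, no filter 469 and thinned libraries 423. DESeq2 called 829 (439 higher in the MBH and 390 in the POA), among them all 437. The fit of 30 vehicle libraries called 638 (385 towards the MBH). Without the 3 thalamus-rich libraries there were 241 (146 and 95). Leaving out 1 library at a time gave 276 to 451 genes, 164 to 244 towards the MBH and 112 to 225 towards the POA, with 276 and 112 reached without POA replicate 1, and 128 and 132 towards the POA without POA replicates 2 and 5. With the label number as a replicate block over 4 pairs, 238 genes were called (137 and 101), and the same 8 libraries without the block gave 280 (160 and 120). Of the 4 pairs, 1 correlated best with its own number.

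The difference between PND42 and PND22 was called for 70 genes by DESeq2, 3 with RLE factors, 0 without a filter and 0 with the block, and for 0 to 56 when 1 library was left out. Between PND42 and PND90 the block gave 1096 genes, and leaving out 1 library 1257 to 2098. The DES comparison at 6 µg/kg rose to 1319 genes without POA library 4. The cause of these changes was not tested.

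Of 124 named genes tested, 91 were called, and 63 of them kept the call under every alternative. No called gene changed sign. Of the others, 12 with small differences changed sign under some alternative, where the adjusted p was 0.736 or more. Leaving out 1 library gave log2 fold changes of -0.34 to 0.044 for Alox15, -0.34 to 0.098 for Oxt, -0.25 to 0.034 for Pgr, -0.56 to 0.014 for Kiss1, -0.084 to 0.018 for Trh, -0.21 to 0.015 for Mkrn3, -0.070 to 0.0056 for Cbx7, -0.054 to 0.0018 for Ezh1, -0.0034 to 0.25 for Ezh2, -0.23 to 0.039 for Enpp6, -0.15 to 0.23 for Hbb and -0.43 to 0.079 for Alas2. Without the 3 thalamus-rich libraries the changed values were 0.17 for Alox15, 0.085 for Oxt, 0.064 for Pgr, 0.083 for Trh, -0.061 for Ezh2 and 0.031 for Enpp6. With the block and in the same 8 libraries without it they were 0.25 and 0.12 for Oxt, 0.014 and 0.019 for Trh and -0.067 and -0.069 for Ezh2. Library totals gave -0.0026 for Hbb. Under the block 18 of the 91 were lost, 9 of which were called in the same 8 libraries without it: Esr2, Slc32a1, Gfap, Mc3r, Mc4r, Irx5, Six6, Gabra5 and Ddc (adjusted p = 0.0507 for Gabra5 to 0.1 for Ddc). Maob, Calb2, Neurod6 and Meis2 lost the call in the 30-library fit and under no other alternative. Genes under about 1 CPM are limited by depth.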
